A study of Mus musculus with 6 samples.

Results

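Most of the genes described here serve the first steps of steroid hormone synthesis in the ovary, up to progesterone and androgens. They were listed as theca genes, but arrays of whole ovaries do not show which cells a signal came from. The list held 10 genes: Star, Cyp11a1, Hsd3b1, Hsd3b6, Cyp17a1, Fdx1, Fdxr, Insl3, Nr5a1 and Srd5a1. A probe set of the array was taken for a gene where its annotation gave that 1 symbol alone, which found 11 of the 45101 probe sets, for 6 of the 10 genes. These were Star and Cyp11a1 with 3 probe sets each, Nr5a1 with 2, and Hsd3b1, Cyp17a1 and Fdx1 with 1 each. Insl3 was listed on 2 probe sets and Hsd3b6 on 1, in each case together with other genes, so no value is given for them by name. Fdxr and Srd5a1 were not analysed here.

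Whole ovaries came from female mice aged 8 months, either wild type (WT) or FORKO, in which all variants of the receptor for follicle-stimulating hormone are deleted. Animals of both genotypes came from crosses between heterozygotes, with 129T2/SvEmsJ as the background. No treatment is given in the labels. There were 3 samples per genotype, each made from pooled ovaries and measured on its own Affymetrix Mouse Genome 430 2.0 array. The labels call the samples biological replicates and give no number of mice for each, so the tests weigh differences against the spread among these samples alone. The free-text fields of the FORKO samples speak of wild-type ovaries, and groups were taken from the titles and the genotype field. Values below are scaled array signals, in arbitrary units, and changes are differences of log2(signal + 5.73), FORKO minus WT, a scale that makes changes of dim probe sets look smaller.

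Cholesterol is carried into mitochondria by the protein that Star encodes, and the enzyme made from Cyp11a1 cuts its side chain to give pregnenolone. Electrons for that cut pass from Fdxr to Fdx1 and on to the enzyme. The Hsd3b enzymes turn pregnenolone into progesterone, and Cyp17a1 turns progestins into androgens, a step that in the ovary is known from theca cells stimulated by luteinising hormone. Granulosa cells, where the receptor for follicle-stimulating hormone sits, convert these androgens into oestrogens. Nr5a1 encodes a transcription factor of steroid-making cells that binds the promoters of many of these genes.

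Upstream sequences were available in RefSeq (GRCm38.p6) for 7 of the 10 genes, Star, Cyp17a1 and Nr5a1 being without one. They are shown for the 3 genes whose FORKO arrays all read below all WT arrays, as the 250 bases before a start of transcription, 5′ to 3′ on the gene's strand. The Fdx1 sequence is chr9:51963603-51963852 on the minus strand, that of Hsd3b1 is chr3:98859795-98860044 on the minus strand, and that of Cyp11a1 is chr9:58014702-58014951 on the plus strand, the downstream one of 2 starts listed. Capitals mark AGGTCA, the binding letters common to many nuclear receptors.
Fdx1: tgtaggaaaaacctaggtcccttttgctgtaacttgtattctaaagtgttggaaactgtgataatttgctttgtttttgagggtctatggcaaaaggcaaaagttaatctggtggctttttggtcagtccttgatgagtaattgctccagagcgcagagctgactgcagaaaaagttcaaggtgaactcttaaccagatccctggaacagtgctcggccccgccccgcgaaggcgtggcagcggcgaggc
Cyp11a1: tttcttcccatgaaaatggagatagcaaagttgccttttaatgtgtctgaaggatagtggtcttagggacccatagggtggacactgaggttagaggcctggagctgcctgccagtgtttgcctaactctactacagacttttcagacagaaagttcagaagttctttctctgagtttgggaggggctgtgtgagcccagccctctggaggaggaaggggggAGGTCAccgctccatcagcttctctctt
Hsd3b1: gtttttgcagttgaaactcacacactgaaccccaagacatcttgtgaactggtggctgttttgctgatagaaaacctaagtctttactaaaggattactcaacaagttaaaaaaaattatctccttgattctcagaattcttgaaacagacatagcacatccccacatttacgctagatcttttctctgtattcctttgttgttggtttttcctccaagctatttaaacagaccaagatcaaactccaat
The search covered both strands of 8 such windows of the listed genes. The longer motif AAGGTCA, the core of the site that the Nr5a1 protein is known to bind, was found in 0 of the 8 windows and in 4.08% of 32851 RefSeq windows of this length. The letters AGGTCA, which lie inside that motif, were searched after it gave no match. They were absent from the window before the upstream Cyp11a1 start, where the listed gene begins, which is not printed here. They occurred 28 bases before the downstream Cyp11a1 start, thus in 1 of the 8 windows, and in 14% of all windows. These are exact matches of letters only, and 8 windows are too few to show a difference from these shares.

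The deleted gene was checked first. Fshr read 99.6, 59.5 and 118.8 on the WT arrays and 1.20, 11.2 and 11.7 on the FORKO arrays, without overlap (log2 change -2.90, limma adjusted p = 0.0102). The call was lost when WT replicate 1 or WT replicate 3 was left out (adjusted p = 0.0525 and 0.0598). Its FORKO mean was under the dim filter, a mean signal of 20.3, so it was tested only through the WT arrays, and its position against the deletion is not known here. The deposited trimmed mean ran from 80.2 to 97.9 over the 6 arrays, and 22519 probe sets were bright enough to be tested. FORKO replicate 1 stood apart from the other FORKO arrays in some granulosa and luteal genes, and not in others such as Foxl2 and Amhr2. The summed signal of 8 granulosa genes was 5836 there, against 14430 and 15069 in replicates 2 and 3 and 10626 to 14668 in WT. The sum of 4 luteal genes was 88.9 there, against 3725 and 3507 in replicates 2 and 3 and 947 to 1209 in WT. Most of it was Sfrp4 on every array but FORKO replicate 1. The other 3 luteal genes summed to 60.0 there, to 204 and 212 in replicates 2 and 3 and to 219 to 365 in WT. Without that array the median change of the 6 steroid synthesis genes was -0.36, against -0.46 with it.

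Of the 6 genes, Fdx1 fell in FORKO ovaries and 5 did not pass (limma, adjusted p under 0.05). Among all 11202 genes tested, each by its brightest probe set, 2.14% passed, 0.839% as lower and 1.30% as higher, and 1.65% of all 22519 probe sets did. The change was negative for 5 of the 6 genes, as it was for 52.5% of all genes, and the median was -0.46, against -0.02 for all genes. The FORKO arrays all read below the WT arrays for Cyp11a1, Hsd3b1 and Fdx1, that is 3 of 6 genes, where this held for 12.0% of all genes. All 6 genes had passed the filter on dim signals, with the means of both groups above its limit. In whole ovaries, fewer cells of a type and less RNA per cell cannot be told apart.

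**Figure D1:**
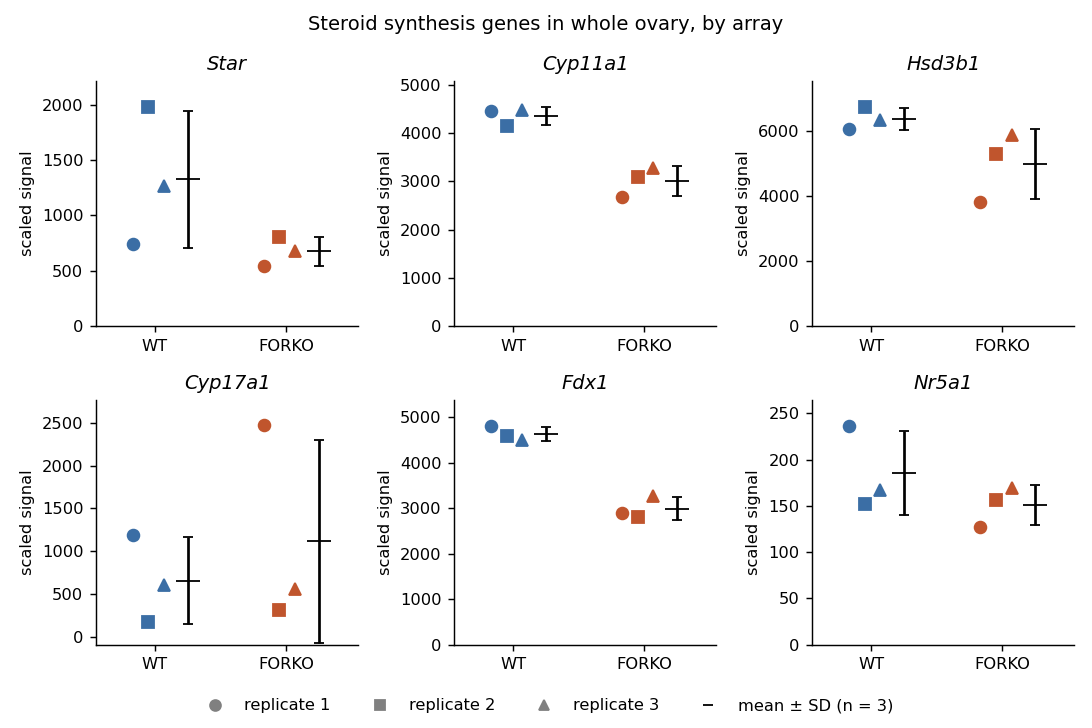
Scaled signal of each of the 6 genes on the 3 WT and 3 FORKO arrays, by brightest probe set; marker shape gives the replicate number and black bars the mean ± SD (n = 3). All FORKO arrays lie below all WT arrays for Cyp11a1, Hsd3b1 and Fdx1, and Cyp17a1 spreads over a wide range in both groups, so that its FORKO bar reaches below 0.

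Fdx1, the ferredoxin that hands electrons to mitochondrial steroid hydroxylases, read 4817, 4596 and 4510 in WT and 2890, 2812 and 3277 in FORKO ovaries. Both groups were tight, and every FORKO array lay well below the lowest WT array. The mean was 4641 ± 158 (SD, n = 3) in WT and 2993 ± 249 (SD, n = 3) in FORKO, a ratio of 0.645. On the log2 scale this was a change of -0.63 ± 0.12 (SE; limma adjusted p = 0.0299). A two-sided exact permutation test gave p = 0.1, which groups of 3 cannot go below. The change was -0.68, -0.72 and -0.50 for FORKO replicates 1, 2 and 3 against the WT mean, so that replicate 1 was not the lowest. The limma call was lost when WT replicate 1, 2 or 3 was left out (adjusted p = 0.122, 0.136 and 0.0974) and when FORKO replicate 2 was (0.0773). It was also lost with arrays scaled to the bacterial spikes (0.0682), with no filter on dim probe sets (0.143) and with no intensity trend (0.119). With both arrays of number 1, 2 or 3 left out, a setting added after the values were seen, it was lost as well (0.0800, 0.285 and 0.197). The change stayed between -0.71 and -0.46 over the 18 other settings.

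Cyp11a1, the side-chain cleavage enzyme that Fdx1 supplies with electrons, read 4452, 4151 and 4471 in WT and 2671, 3086 and 3270 in FORKO. As for Fdx1, the groups were separate. Unlike for Fdx1, FORKO replicate 1 was the lowest array. The mean was 4358 ± 179 (SD, n = 3) in WT and 3009 ± 307 (SD, n = 3) in FORKO. The log2 change was -0.54 ± 0.12 (SE), with a 95% interval of -0.81 to -0.26, and it did not pass (limma adjusted p = 0.0667; exact permutation p = 0.1). It passed once the arrays shared the same median (adjusted p = 0.0479; range over 18 alternatives 0.0479 to 0.735). The other Cyp11a1 probe sets were far dimmer. One read 23.1, 48.8 and 44.0 in WT and 27.2, 56.9 and 53.0 in FORKO, with overlapping groups and a change of 0.21 ± 0.32 (SE), opposite in sign to the bright probe set. The third read 1.35 to 12.4 in WT and 1.64 to 13.7 in FORKO and was under the dim filter. With the log2 values of the tested probe sets averaged, the Cyp11a1 change was -0.16.

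Star, the cholesterol carrier that sets the pace of steroid synthesis, had 3 probe sets that all gave lower means in FORKO. The brightest read 742, 1978 and 1263 in WT and 543, 804 and 682 in FORKO. WT arrays were widely spread, and WT replicate 1 lay below FORKO replicate 2. The mean was 1328 ± 620 (SD, n = 3) in WT and 676 ± 131 (SD, n = 3) in FORKO, and the change was -0.87 ± 0.31 (SE; limma adjusted p = 0.227; exact permutation p = 0.2). The 95% interval of -1.57 to -0.18 was that of the single gene, before adjustment. The second probe set read 354, 864 and 663 in WT and 355, 418 and 402 in FORKO, a change of -0.58 (limma adjusted p = 0.386). The third read 360, 1544 and 808 in WT and 296, 576 and 422 in FORKO, a change of -0.87 (limma adjusted p = 0.414). The 3 probe sets thus had the same lowest and highest arrays in each group. With the replicate number as a block, Star fell (limma adjusted p = 0.0417), as it did with both arrays of number 1 left out (0.0174), while over 18 alternatives, the block among them, its adjusted p ran from 0.0417 to 0.575 and its change from -1.24 to -0.53.

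Hsd3b1, which forms progesterone from pregnenolone, read 6066, 6741 and 6338 in WT and 3810, 5288 and 5881 in FORKO. FORKO replicate 1 was the lowest of all arrays, while replicate 3 came close to the lowest WT array. The mean was 6382 ± 339 (SD, n = 3) in WT and 4993 ± 1067 (SD, n = 3) in FORKO. The change was -0.38 ± 0.16 (SE), with a 95% interval of -0.73 to -0.02, and did not pass (limma adjusted p = 0.314; exact permutation p = 0.1). Against the WT mean, FORKO replicates 1, 2 and 3 differed by -0.74, -0.27 and -0.12, and the change without replicate 1 was -0.19. The probe set annotated jointly to Hsd3b6, Hsd3b3 and Hsd3b2 read 8.41, 8.33 and 41.2 in WT and 22.5, 11.6 and 27.4 in FORKO. It was under the dim filter, with overlapping groups, and its signal cannot be assigned to any of these near-identical genes.

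**Figure D2:**
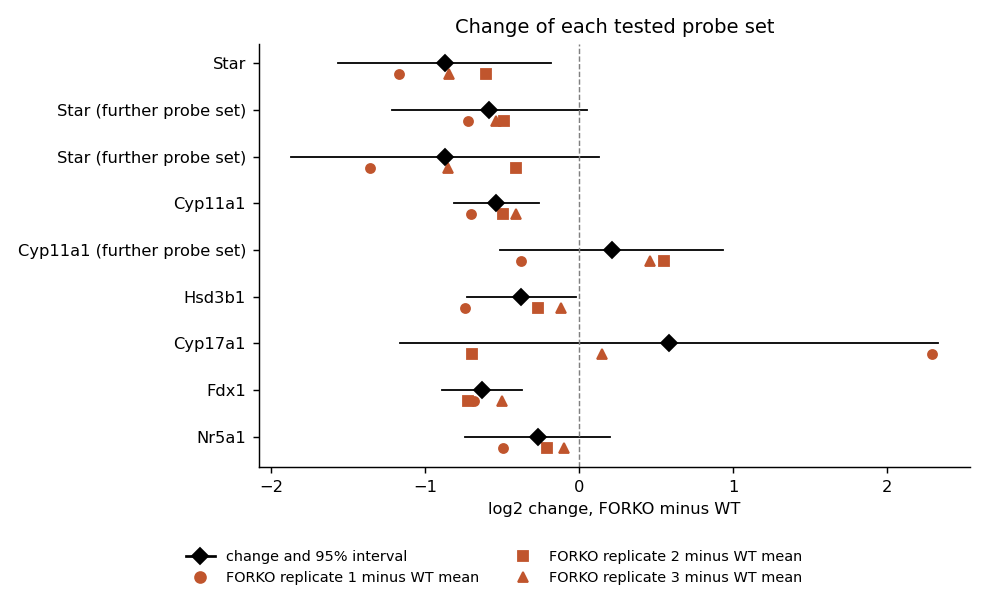
Log2 change FORKO minus WT of each of the 9 tested probe sets (diamonds, with 95% intervals) and the difference of each FORKO array from the WT mean (orange markers). Fdx1 and the bright Cyp11a1 probe set have all 3 FORKO arrays close together below 0, whereas Cyp17a1 has arrays from -0.70 to 2.29.

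Cyp17a1, the enzyme that makes androgens from progestins and marks theca cells, varied more among arrays of a group than between groups. It read 1188, 173 and 604 in WT and 2477, 307 and 556 in FORKO. FORKO replicate 1 was the highest of the 6 arrays and WT replicate 2 the lowest, and the groups overlapped. The mean was 655 ± 509 (SD, n = 3) in WT and 1113 ± 1188 (SD, n = 3) in FORKO. The change was 0.58 ± 0.78 (SE), with a 95% interval of -1.17 to 2.33 that covers both a fall and a rise of over 2-fold (limma adjusted p = 0.805; exact permutation p = 0.7). The change was -0.27 without FORKO replicate 1 and -0.17 without WT replicate 2, each of which leaves the other array of that number in the fit. With both arrays of number 1, 2 or 3 left out it was 0.34, 0.47 and 0.93, none of which passed (limma adjusted p = 0.788, 0.937 and 0.830). With the replicate number as a block the change of 0.58 had an SE of 0.22 and did not pass either (limma adjusted p = 0.208).

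Arrays with the same replicate number resembled each other for Star and Cyp17a1, in opposite ways. In both genotypes, replicate 1 had the lowest Star and the highest Cyp17a1 signal, and replicate 2 the highest Star and the lowest Cyp17a1 signal. Within a number, Star in FORKO was 0.731, 0.407 and 0.540 times the WT array for numbers 1, 2 and 3, lower in 3 of 3. Cyp17a1 in FORKO was 2.09, 1.77 and 0.920 times the WT array, higher in 2 of 3. A shared order of the 3 numbers in both genotypes was seen for 2 of the 6 genes, and for 26.6% of all genes tested, so it was not particular to steroid synthesis. The labels do not say what the numbers stand for.

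**Figure D3:**
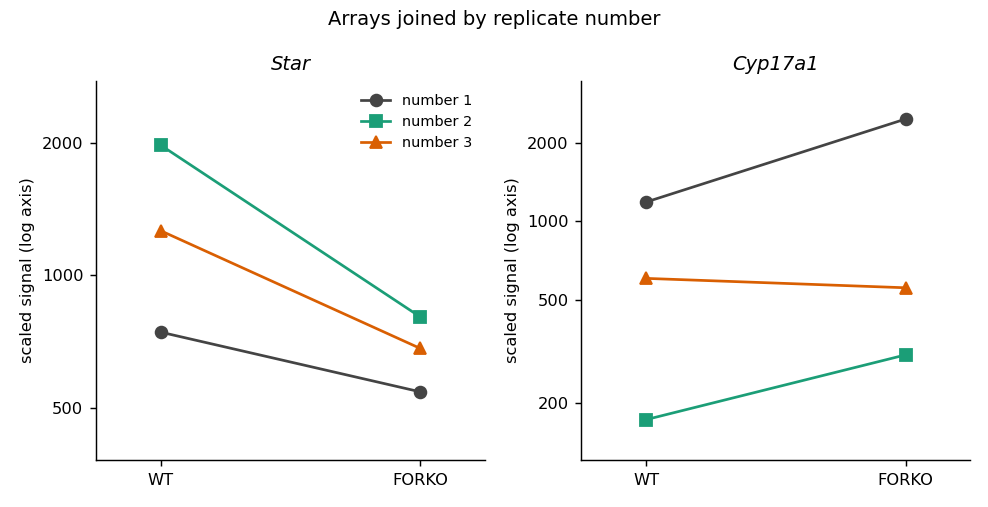
Scaled signal of Star and of Cyp17a1 on a log axis, with the WT and FORKO arrays of the same replicate number joined by a line. Star falls along all 3 lines and number 1 is lowest, while Cyp17a1 has number 1 highest and number 2 lowest in both genotypes.

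Nr5a1, the nuclear receptor also known as steroidogenic factor 1, read 237, 152 and 168 in WT and 127, 156 and 169 in FORKO. The groups overlapped, and only FORKO replicate 1 lay below every WT array. The mean was 185 ± 45.1 (SD, n = 3) in WT and 151 ± 21.6 (SD, n = 3) in FORKO, a change of -0.27 ± 0.21 (SE), with a 95% interval of -0.74 to 0.20 (limma adjusted p = 0.623; exact permutation p = 0.5). Without FORKO replicate 1 the change was -0.16, and without both arrays of number 1 it was 0.028. A second probe set read 22.6, 14.2 and 14.0 in WT and 4.15, 6.29 and 13.7 in FORKO, all FORKO arrays being below all WT arrays, but it was under the dim filter and was not tested. Nr5a2, the paralog that is known from granulosa and luteal cells, read 1928, 1636 and 1660 in WT and 207, 657 and 766 in FORKO, without overlap. Its change of -1.87 ± 0.40 (SE) did not pass (limma adjusted p = 0.0546). It passed in 5 of 18 alternatives: with the replicate block (adjusted p = 0.0420), with signals as deposited (0.0255), with the same median (0.0350) and with FORKO replicate 1 or 3 left out (5.50e-04 and 0.0499). Its adjusted p ran up to 0.189.

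The other genes of the pathway were taken from lists of 43 genes, of which 35 had a probe set and 29 were tested. Sult1e1 rose, 28 did not pass, and the median change was 0.08. Counts of list genes at an unadjusted p are given below without the share of all genes at that p, as description only. Sult1e1, the sulfotransferase that inactivates oestrogens, read 3.22, 2.39 and 0.895 in WT and 490, 51.7 and 109 in FORKO, a change of 4.24 ± 0.63 (SE; limma adjusted p = 0.0143). All FORKO arrays were far above the WT arrays, with replicate 1 the highest. The WT mean of 2.17 was under the dim filter and below the pseudocount of 5.73, so Sult1e1 was tested only through the FORKO arrays and its WT level is not resolved. With no dim filter it passed (adjusted p = 0.0256). The call was lost without WT replicate 1, 2 or 3 (adjusted p = 0.0547, 0.0737 and 0.0677).

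None of 7 genes of cholesterol supply passed limma's test, 0 had an unadjusted p under 0.05, and all 7 changes were positive in sign, with a median of 0.15. With arrays scaled to the same median, 5 of the 7 were positive. Stard3, a late endosomal cholesterol carrier related to Star, read 152, 165 and 199 in WT and 337, 171 and 204 in FORKO, where replicate 1 alone was high (change 0.40, limma adjusted p = 0.515). Stard4, a soluble sterol carrier of the same family, read 220, 189 and 226 in WT and 267, 304 and 244 in FORKO, without overlap (change 0.35, limma adjusted p = 0.374). Both changes were opposite in sign to that of Star.

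None of 3 other electron donors passed (0 at an unadjusted limma p under 0.05). Cyb5a, cytochrome b5, which favours the androgen-forming activity of the Cyp17a1 enzyme, read 1789, 1418 and 1704 in WT and 1118, 2549 and 2694 in FORKO. FORKO replicate 1 was the lowest array and replicates 2 and 3 were the highest, and without replicate 1 Cyb5a rose by 0.68 (limma adjusted p = 0.0262, against 0.738 with all arrays). The membrane-bound form of the outer mitochondrion, Cyb5b, had a change of -0.24 (limma adjusted p = 0.514). Of the other Hsd3b family genes only Hsd3b7, an enzyme of bile acid synthesis, was bright enough to be tested (change 0.35, limma adjusted p = 0.583; 0 of 1 at an unadjusted p under 0.05). The probe sets named for Hsd3b2, Hsd3b3 and Hsd3b5 read 0.312 to 22.1 over the 6 arrays.

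Of 8 other steroid-converting enzymes, Sult1e1 was the one that passed. Several of the rest, named after their values were seen, were set apart by 1 FORKO array. Hsd17b1, which in granulosa cells reduces oestrone to oestradiol, read 1466, 1343 and 1360 in WT and 139, 1854 and 1714 in FORKO. Akr1c14, a hydroxysteroid dehydrogenase, read 1651, 1704 and 1312 in WT and 200, 1848 and 1390 in FORKO. Akr1c18, which inactivates progesterone in the corpus luteum, read 103, 103 and 151 in WT and 0.656, 86.3 and 80.6 in FORKO, without overlap. In all 3 genes FORKO replicate 1 was by far the lowest array, and none passed (limma adjusted p = 0.688, 0.580 and 0.385). On FORKO replicates 1, 2 and 3, Fdx1 read 2890, 2812 and 3277 and Cyp11a1 2671, 3086 and 3270, without such a gap. Hsd3b1 read 3810, 5288 and 5881, so replicate 1 was the lowest there too, by a smaller margin. Without that array the Hsd3b1 change was -0.19, against -0.38 with it. Hsd17b3, the enzyme known from testicular testosterone synthesis, read 7.89, 9.68 and 8.06 in WT and 49.8, 16.4 and 35.1 in FORKO, without overlap (change 1.37, limma adjusted p = 0.0991, and 0.0381 without FORKO replicate 2). Its WT mean of 8.54 was under the dim filter, so that it too was tested only through the FORKO arrays, and with no filter its adjusted p was 0.181.

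**Figure D4:**
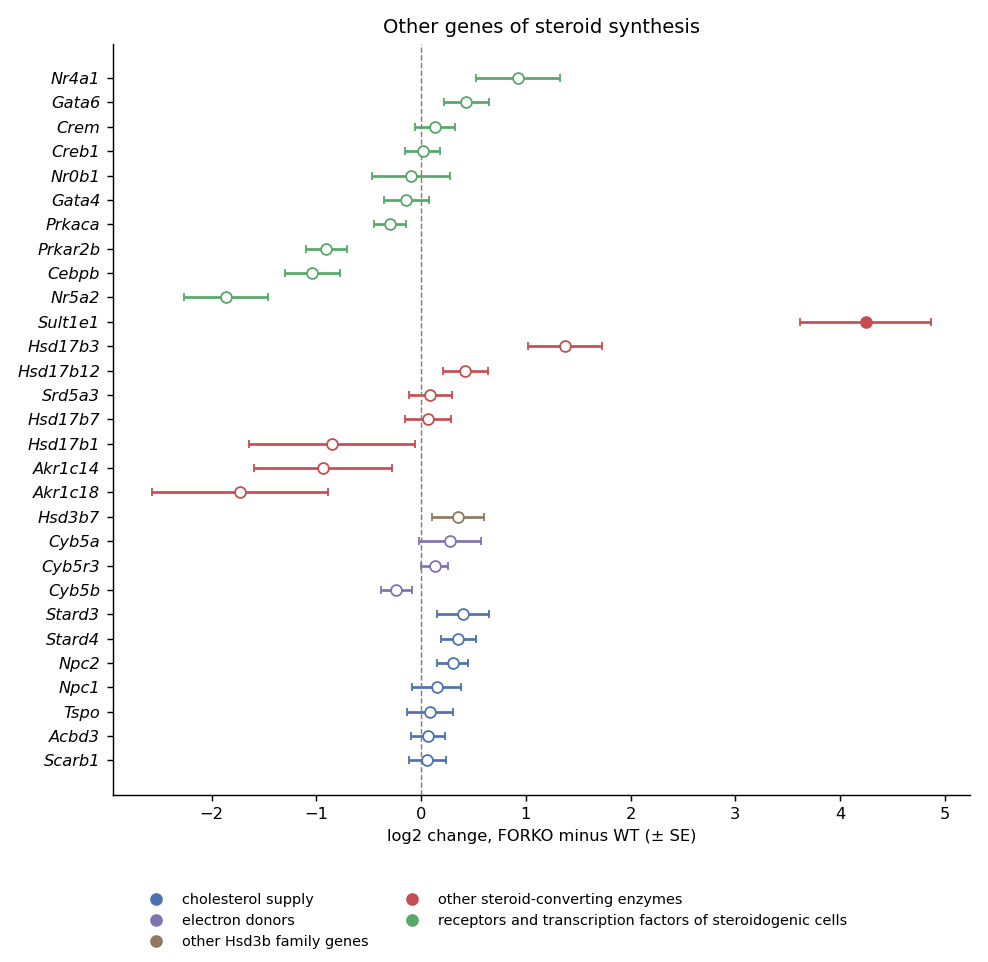
Log2 change FORKO minus WT (± SE) of the 29 tested genes in the lists of the wider pathway, coloured by list; the filled point passed limma's test and open points did not. Sult1e1 at 4.24 is the one filled point, and the genes of cholesterol supply lie between 0.06 and 0.40.

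None of 10 receptors and transcription factors of steroid-making cells passed limma's test (4 at an unadjusted p under 0.05), and their median change was -0.12, or 0.04 with arrays scaled to the bacterial spikes, where the median of all probe sets was 0.15. Besides Nr5a2, Cebpb, a transcription factor known from ovulating follicles, read 297, 517 and 237 in WT and 159, 169 and 148 in FORKO, without overlap (change -1.04, limma adjusted p = 0.0928), and it passed with the replicate block (0.0384). Prkar2b, a regulatory subunit of the kinase through which cAMP acts on these genes, read 1909, 1455 and 1631 in WT and 1141, 704 and 851 in FORKO (change -0.91, limma adjusted p = 0.0538). It passed in 5 of 18 alternatives: with the block (0.0148), with signals as deposited (0.0197), with robust eBayes (0.0476), with all its probe sets averaged (0.0339) and without FORKO replicate 1 (0.00290). Nr4a1, an early response factor in steroid-making cells, read 33.0, 64.8 and 82.8 in WT and 58.2, 156 and 154 in FORKO (change 0.92, limma adjusted p = 0.327), and it too passed with the block (0.0386) and without FORKO replicate 1 (0.0204). Prkar2b and Nr4a1 were named after their values were seen. Adjusted p values over 18 alternative settings ran from 0.0384 to 0.216 for Cebpb, from 0.00290 to 0.189 for Prkar2b and from 0.0204 to 0.625 for Nr4a1.

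Marker genes of the ovary and of neighbouring tissue were read beside these results. None of 6 theca and stroma genes other than the ones above passed (1 at an unadjusted limma p under 0.05). The summed signal of the list, with Gli1, which was under the dim filter, was 4154 to 4577 in WT and 3830 to 5378 in FORKO. Acta2, the brightest, read 756 on FORKO replicate 1 and 1516 to 2157 on the other arrays. Without Acta2, the other 6 genes summed to 2638 to 2821 in WT and to 3056 to 3221 in FORKO, without overlap. The largest changes among the 6 tested genes were those of Pdgfra, a receptor of stromal cells (0.45, limma adjusted p = 0.204), and of Bmp4, a growth factor (-0.29, limma adjusted p = 0.660). None of 7 granulosa genes passed, and they did not move as one: 3 changes were positive and 4 negative, with a median of -0.62. The 2 with an unadjusted limma p under 0.05 were opposite in sign, Amhr2 with a change of 0.66 and Inha, a subunit of inhibin, with -0.62 (adjusted p = 0.0699 and 0.289).

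Inhba, a subunit of activin and inhibin, read 54.2 on FORKO replicate 1, against 3866 and 3755 on replicates 2 and 3 and 2047 to 4332 in WT (change -1.63, limma adjusted p = 0.631). Fst, which binds activin, read 42.0 there, against 1832 and 1766 on replicates 2 and 3 and 908 to 1527 in WT (change -1.14, limma adjusted p = 0.717). Inhbb, Esr2 and Inha were also lowest on FORKO replicate 1. Inhbb read 29.7 there, against 1640 and 1362 on replicates 2 and 3 and 673 to 1210 in WT. Esr2 read 9.95 there, against 108 and 66.2 on replicates 2 and 3 and 30.7 to 40.1 in WT. Inha read 2009 there, against 3984 and 4359 on replicates 2 and 3 and 4781 to 5219 in WT. Foxl2 and Amhr2 showed no such gap. Foxl2, which maintains granulosa cell identity, had signals of 850, 872 and 819 on FORKO replicates 1, 2 and 3 and 626 to 810 in WT, without overlap (change 0.31, limma adjusted p = 0.404). Amhr2, the receptor for anti-Müllerian hormone, read 2841, 2128 and 2941 in FORKO and 1550 to 1745 in WT, also without overlap. Foxl2, Amhr2, Inha, Inhbb and Esr2 were named after their values were seen.

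None of 4 luteal genes passed (1 at an unadjusted limma p under 0.05; median -1.09). Akr1c18, given above, and Ptgfr, the luteal receptor for prostaglandin F2α, had the largest changes (-1.73 and -1.66; limma adjusted p = 0.385 and 0.309). Ptgfr read 0.547 on FORKO replicate 1, against 52.6 and 43.8 on replicates 2 and 3 and 68.4 to 94.4 in WT. For both genes all FORKO arrays read below all WT arrays, which held for 12.0% of all genes. Sfrp4, which makes up most of the luteal sum on every array but FORKO replicate 1, read 28.9, 3521 and 3295 on FORKO replicates 1, 2 and 3 and 582 to 894 in WT. Parm1 had no such gap, with 58.8, 65.5 and 87.8 in FORKO and 44.4 to 194 in WT. Sfrp4 and Parm1 were named after their values were seen. Star, Cyp11a1, Hsd3b1 and Nr5a1 were also lowest on FORKO replicate 1. The part of the differences on that array in their values was not tested.

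Among genes of the adrenal cortex, the other large source of steroids, Mc2r read 0.806 to 5.50 over the 6 arrays, Cyp11b1 5.19 to 27.3 and Cyp11b2 1.45 to 14.8, all under the dim filter. Cyp21a1, the adrenal 21-hydroxylase, read 5.40, 17.4 and 24.6 in WT and 283, 15.1 and 44.1 in FORKO. It was far higher on FORKO replicate 1 than on any other array, and this was the array with the highest Cyp17a1 signal. A link between the Cyp21a1 and Cyp17a1 signals was not tested. On that array Mc2r, Cyp11b1 and Cyp11b2 read 0.984, 18.7 and 2.84. The Cyp21a1 change was 1.75 (limma adjusted p = 0.349), and its WT mean was under the dim filter. None of 2 tested adrenal genes passed (0 at an unadjusted limma p under 0.05). Mrap, the accessory protein of the corticotropin receptor, read 203 to 415 in WT and 256 to 598 in FORKO (change 0.42, limma adjusted p = 0.650). The summed signal of 5 adrenal genes was 221 to 477 in WT and 561 to 645 in FORKO. Without Mrap, the brightest, the other 4 summed to 17.5 to 62.5 in WT and to 305, 46.1 and 80.6 in FORKO replicates 1, 2 and 3.

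Oosp1 and Zp2, made by oocytes, fell (changes -1.52 and -1.29; limma adjusted p = 0.00797 and 0.0112). The other 3 of the 5 tested did not pass, but all 5 had an unadjusted limma p under 0.05, a negative change and no overlap between groups, with a median change of -1.29. Among all genes tested, 12.0% read lower in FORKO without overlap and 52.5% had a negative change. The summed signal of the oocyte genes, with Bmp15, which was under the dim filter, was 826 to 964 in WT and 299 to 470 in FORKO.

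None of 6 macrophage genes passed (1 at an unadjusted limma p under 0.05). All 6 changes were positive, or 5 of the 6 with arrays scaled to the same median. The largest were those of C1qa, a complement component, and Adgre1, a macrophage surface receptor (0.56 and 0.53; limma adjusted p = 0.354 and 0.282). None of 3 endothelial genes passed (0 at an unadjusted limma p under 0.05), and Kdr and Tek, receptors of endothelial cells, had changes of 0.31 and 0.15 (adjusted p = 0.438 and 0.818). Neither of 2 oviduct genes passed, although both had an unadjusted limma p under 0.05. Ovgp1, the oviduct glycoprotein, read 12.7 to 34.4 in WT and 27.2, 247 and 184 in FORKO (change 1.93, limma adjusted p = 0.210). Wfdc2, an epithelial secreted protein, read 1.56 to 13.7 in WT and 34.0 to 52.1 in FORKO (change 1.84, limma adjusted p = 0.0509) and was tested only through the FORKO arrays, its WT mean being under the dim filter. No gene of the fat list was bright enough to be tested. The summed macrophage signal was highest on FORKO replicate 1 (2909, against 1539 and 2249 on replicates 2 and 3 and 1425 to 2123 in WT). The part of these cell types in the results was not tested.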

How the data were processed

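The authors deposited a linear array intensity for each probe set, made with MAS5 per the submitters' processing notes; its version, target and detection calls are not given in those notes. The member genes and lists were chosen with earlier results of these data known.

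Arrays were brought to a common mean, computed without the top and bottom 2% of signals, by factors of 0.895 to 1.09. The pseudocount of 5.73, added before log2, was the pooled 25th percentile. The 64 control probe sets were dropped, as were those whose mean scaled signal was under the median of such means, 20.3. The remaining 22519 probe sets were fitted with limma 3.58.1 in R 4.3.3 (lmFit, eBayes with an intensity trend, two-sided, Benjamini-Hochberg at 0.05, no replicate block), tested on simulated data. Figures were drawn with matplotlib 3.10.9. No 2 arrays of a group were identical (0 of 6 pairs). Arrays give no counts, and their number limits the precision.

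The brightest probe set over all 6 arrays stood for a gene. The annotation gave 1 symbol for 34958 probe sets, several for 932 and none for 9211. All members were named; of each list, those that passed, or else the 2 largest changes, with paralogs and partners of members and others chosen after their values were seen, as stated there.

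As a check of pairing, each array's deviations from its group mean were correlated between the WT and FORKO arrays of a number, giving 0.195, 0.134 and 0.358 for 1, 2 and 3. All exceeded 0.1, while those between arrays of unlike numbers ran from -0.215 to 0.0132. Deviations from a group mean cancel within the group, so these values are not independent. The numbers may pair the samples, but the labels do not say so. The main fit and its p values used no such pairing, and the block was run as an alternative. Alternatives covered normalization, pseudocount, dim filter, variance model, the block, the probe set standing for a gene and each array left out in turn, and, added after seeing the data, both arrays of a number.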

Additional observations from a re-analysis of the deposited data

Results flagged for a closer look

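A probe set outside the comparison is annotated to both Jak3 and Insl3, and its signal was above that of the WT controls on every FORKO array. It read 11.8, 16.9 and 27.5 in WT and 812, 130 and 268 in FORKO, a log2 change of 3.72 ± 0.54 (SE; limma adjusted p = 0.0132; exact permutation p = 0.1). Its adjusted p was 0.0630, 0.0737 and 0.0506 without WT replicates 1, 2 and 3 and 1.92e-04 without FORKO replicate 1. The WT mean of 18.7 was under the dim filter of 20.3, so the probe set was tested only through the FORKO arrays, and with no dim filter its adjusted p was 0.0213. FORKO replicate 1 was the highest array, as it was for Cyp17a1. A second probe set annotated to the same pair of genes read 0.417 to 8.93 in WT and at most 12.6 in FORKO, with overlapping groups, under the dim filter. The annotation does not settle which gene the bright probe set measures, so the signal is assigned to neither.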

How the results depend on the processing

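Of the 6 genes, 5 kept their negative sign in each of 18 alternatives without paired omission; Cyp17a1 turned negative without WT replicate 2 (-0.17) and without FORKO replicate 1 (-0.27), and with single arrays left out its change ran from -0.27 to 1.22. With both arrays of a number left out, a setting chosen after seeing the data, the Nr5a1 change ran from -0.43 to 0.028, positive without the pair of number 1, and the other 5 genes kept their sign. The median change of the 6 genes ran from -0.55 to -0.28 over those 18 alternatives. Fdx1 passed in 11 of 18. The count of the 6 genes that passed, 1 in the main setting, was 2 with arrays scaled to the same median (Cyp11a1 and Fdx1) and 2 with the replicate block (Star and Fdx1). It was 0 by limma with spike scaling, with no dim filter and with no intensity trend, where 2, 3 and 3 had an unadjusted p under 0.05. The count ran from 0 to 1 with single arrays left out, where 2 to 4 had such a p. The share of all genes at such a p is not given here, so no conclusion is drawn from these counts. With spike scaling the median of all probe sets was 0.15; relative to it, Fdx1 changed by -0.61, Cyp11a1 by -0.52 and Star by -0.85. The count of wider pathway genes, 1 in the main setting, was 3 with signals as deposited, 2 with the same median, 2 with robust eBayes, 2 with all probe sets of a gene averaged, 5 with the replicate block, and 0 to 5 with single arrays left out (5 to 10 at an unadjusted p under 0.05). Of all probe sets tested, 372 passed in the main setting, 589 with spike scaling, 221 with no dim filter, 191 with the stricter filter, 692 with the replicate block and 62 to 864 with single arrays left out. The share of higher calls was 64.0%, against 50.4% with the same median and 84.0% with spike scaling. The block changed no call of the 6 genes other than that of Star. Apart from the fewer arrays or the different number of probe sets tested, the cause of these differences was not tested. Dim probe sets of Cyp11a1, Nr5a1 and the Hsd3b family limit what can be said of them.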
